A study of Homo sapiens with 8 samples.

Results

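The HOX genes are described here in 8 samples of SKOV3, a long-established cell line from a human ovarian carcinoma. The members were taken by name: every gene in the deposited tables called HOXA, HOXB, HOXC or HOXD followed by a number, which gave 39 of 22554 features (11 HOXA, 10 HOXB, 9 HOXC and 9 HOXD genes). Low-density lipoprotein (LDL), the particle that brings cholesterol to cells, was added to 4 samples (50 µg/mL, for 48 h), and the other 4, the controls, stayed in ordinary medium. All 8 samples grew in McCoy's 5A medium with 10% fetal bovine serum and antibiotics, so the controls were not free of serum. The labels give no genetic difference between the groups. Whether samples within a group came from separate cultures is not stated, so the p-values reflect sample-to-sample spread that could be technical.

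HOX genes encode homeodomain transcription factors that give cells their position along the head-to-tail axis of the embryo. They lie in 4 clusters, HOXA to HOXD, and carry numbers by position: the low numbers sit at the 3′ end of a cluster and act toward the head, and the high numbers sit at the 5′ end and act toward the tail, in the limbs and in the genital tract. Genes with the same number in different clusters are paralogs of common descent. In adult cells, Polycomb proteins keep HOX genes silent and trithorax proteins keep them active, and HOX proteins bind DNA together with partners of the PBX, MEIS and PKNOX families. In the female reproductive tract the high-numbered HOXA genes are known to mark successive segments, HOXA9 the oviduct, HOXA10 and HOXA11 the uterus and HOXA13 the lower tract.

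The libraries were deep for this purpose: the control libraries held 37189698 to 44883561 counts and the LDL libraries 34682501 to 36780334, each LDL library being shallower than each control library. The labelled cell type was checked against markers. PAX8, a transcription factor of the Müllerian lineage, stood at a mean of 99.5 FPKM (a fragment count scaled to transcript length and library size), the epithelial keratin KRT8 at 920 FPKM and ERBB2, known to be amplified in this line, at 543 FPKM. WT1 (0.051 FPKM) and MUC16 (0.014 FPKM) were close to 0, and CDKN2A, known to be deleted in this line, and the pan-leukocyte marker PTPRC were at 0 in all 8 libraries. Of the other markers, 1 of 5 blood and immune genes (CD68, 26.5 FPKM), 3 of 7 fibroblast genes (COL1A1 at 56.4, COL1A2 at 1.72 and LUM at 1.56 FPKM) and 0 of 4 endothelial genes reached 1 FPKM, and none of these lists had a member past the threshold between the groups. LDL samples 1 and 4 weighed most on the comparison across all genes: 10 features passed the threshold of the test with all samples, 149 without LDL sample 1 and 26 without LDL sample 4. Results that could rest on them are also given without them. Among the markers, the keratin KRT19 and ERBB2 passed without LDL samples 1 and 4. Their log2 fold changes were 0.21 and -0.18 (edgeR adjusted p = 0.0152 and 0.0422), in a fit in which 248 of 15944 features passed (1.56%).

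The HOXB cluster carried the bulk of HOX expression. Taking a mean of at least 1 FPKM over the 8 libraries as expressed, 23 of the 39 genes were expressed: 9 of 10 HOXB, 6 of 9 HOXD, 5 of 11 HOXA and 3 of 9 HOXC genes. A further 8 genes lay between 0.1 and 1 FPKM, and 8 were under 0.1 FPKM. Summed over members, HOXB genes gave 84.2% to 86.6% of all HOX FPKM in the 8 libraries, HOXD genes 6.91% to 8.21%, HOXA genes 3.06% to 4.03% and HOXC genes 3.02% to 3.60%. Each group of 4 taken alone also gave 23 expressed genes.

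**Figure D1:**
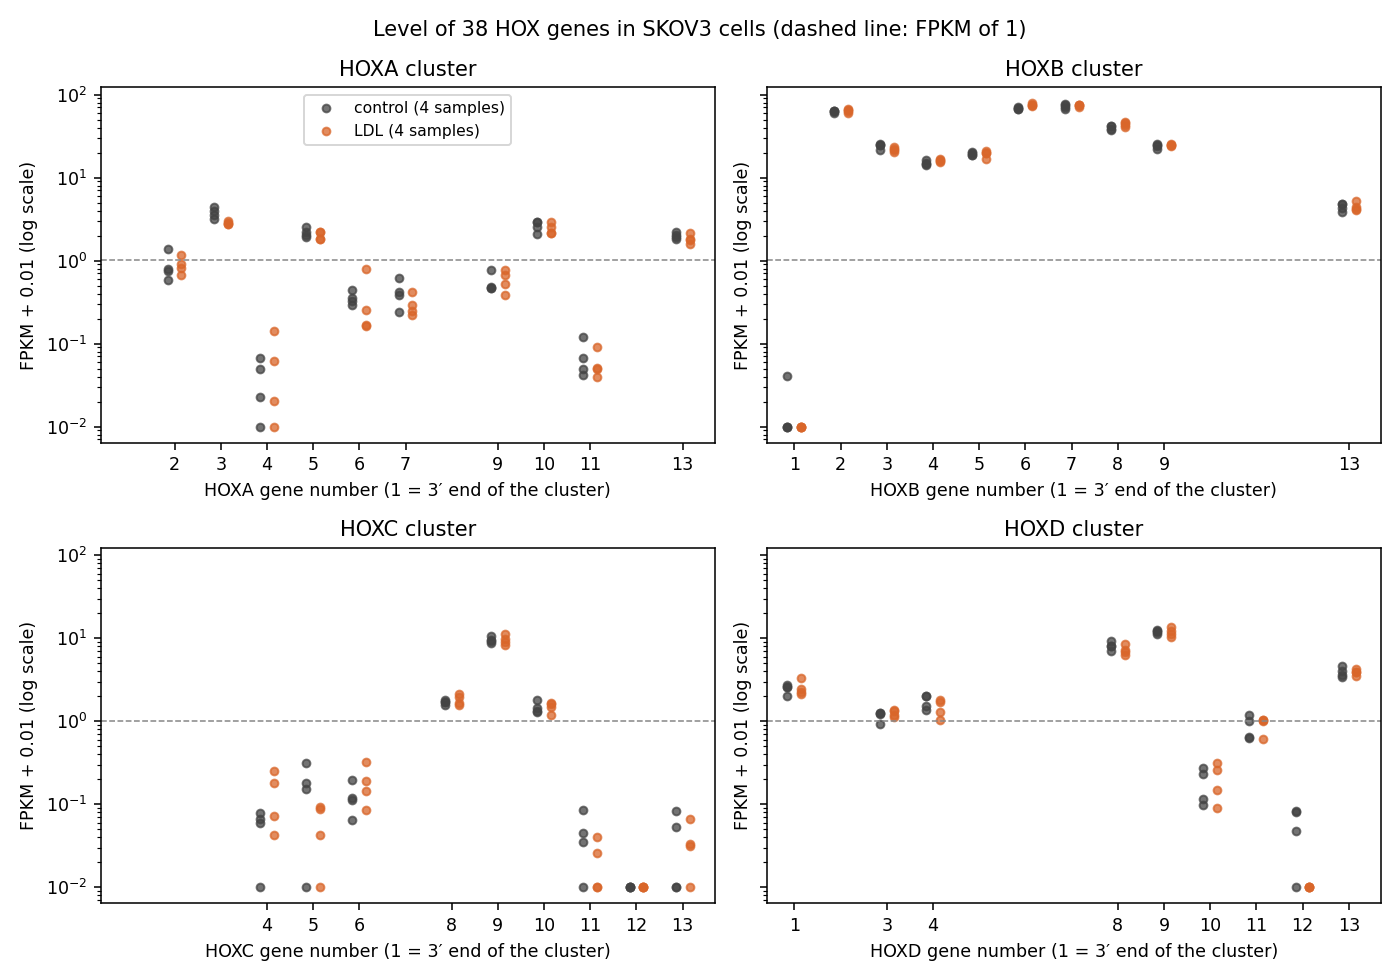
Level of 38 HOX genes in each library, as FPKM plus 0.01 on a log axis, against the gene's number in its cluster. Dark points are the 4 control and orange points the 4 LDL samples, and the dashed line is 1 FPKM. HOXB2 to HOXB9 lie above 14.1 FPKM in every library, while HOXB1 next to them is at 0 in 7 of 8.

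In the HOXB cluster, on chromosome 17 (GRCh38), the expressed genes formed a run from HOXB2 to HOXB13 that was unbroken in the order of HOX genes. Their span, chr17:48540894-48729178 on the minus strand, includes a gap of 98.4 kb before HOXB13. The densest part of the run, the 8 genes HOXB2 to HOXB9 within 85.5 kb, lay at 14.1 FPKM or more in each library. No HOX gene outside the cluster reached that level, the highest value in any library being 13.5 FPKM. The lowest of the 8 was HOXB4, whose FPKM assumed a length of 2069 to 2124 bases (worked out as for HOXA3 below). Its annotated transcript has 3757 bases, and that length would bring its FPKM below 13.5. The separation of HOXB4 from HOX genes outside the cluster thus depends on the assumed length. HOXB7, HOXB6 and HOXB2 led with 72.8 ± 3.19, 71.5 ± 4.21 and 62.9 ± 2.45 FPKM (SD over all 8 libraries). HOXB8 followed at 42.0 ± 3.16 FPKM, then HOXB9 (24.3 ± 1.20), HOXB3 (22.9 ± 1.81), HOXB5 (19.3 ± 1.35) and HOXB4 (15.5 ± 0.888). These are the middle genes of the cluster: HOXB2 and HOXB3 act in hindbrain segments, HOXB4 is known from blood stem cells, HOXB8 from myeloid progenitors, and HOXB9 from the thoracic skeleton. Among neighbours in the order of level, the 8-library ranges of HOXB7 and HOXB6 overlapped, and those from HOXB9 down to HOXB4 overlapped from one to the next, while HOXB6 and HOXB2, HOXB2 and HOXB8, and HOXB8 and HOXB9 did not overlap.

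The edge of that block was sharp on the HOXB1 side, while its other side is followed by a long gap without HOX genes. HOXB1, the hindbrain gene 9.89 kb beyond HOXB2, had 2 counts in control sample 4 and 0 in the other 7 libraries. At a count of 0 a library allows up to 3 counts, or 0.0668 to 0.0865 CPM (counts scaled to library size) depending on its depth, and such limits cover counting error only. On the other side, HOXB13, a gene known for the prostate and hindgut, lies 98.4 kb beyond HOXB9 and stood at 4.45 ± 0.444 FPKM. Of the 2 small genes next to HOXB13 in that gap, PRAC1 was at 0 in all 8 libraries and PRAC2 at a mean of 0.211 FPKM.

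The HOXD cluster, on chromosome 2 (plus strand), was expressed in a run of 5 genes and at 1 separate gene at its other end. The run covered HOXD9, HOXD8, HOXD4, HOXD3 and HOXD1 at chr2:176122720-176190907, 68.2 kb. HOXD9, a limb and trunk gene, was the highest HOX gene outside HOXB at 11.9 ± 0.943 FPKM, with HOXD8 at 7.63 ± 0.995, HOXD1 at 2.48 ± 0.417, HOXD4 at 1.58 ± 0.357 and HOXD3 at 1.19 ± 0.133 FPKM. Next to HOXD9 on the 5′ side, HOXD10 (0.181 FPKM), HOXD11 (0.886 FPKM) and HOXD12 (0.0227 FPKM) fell below the level taken as expressed. Beyond them HOXD13, the last gene of the cluster and a gene of digits and the genital tubercle, stood at 3.89 ± 0.424 FPKM, in each library between 3.38 and 4.67 FPKM.

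The HOXC cluster, on chromosome 12 (plus strand), was expressed at 3 neighbouring genes, HOXC10, HOXC9 and HOXC8, at chr12:53985065-54012362, 27.3 kb. HOXC9, known from thoracic motor neurons, led with 9.54 ± 0.975 FPKM, against 1.75 ± 0.197 for HOXC8 and 1.46 ± 0.206 for HOXC10. The genes on the 3′ side were low: HOXC6 at 0.144, HOXC5 at 0.101 and HOXC4 at 0.0847 FPKM. On the 5′ side HOXC11 stood at 0.023 FPKM, HOXC12 at 0 in all 8 libraries and HOXC13 at 0.027 FPKM.

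The HOXA cluster, on chromosome 7 (minus strand), had no run of neighbouring expressed genes at the level of 1 FPKM. That depends on the level: at a mean of at least 0.5 FPKM, HOXA2 and HOXA9 also count, and they adjoin HOXA3 and HOXA10. HOXA3 (3.30 ± 0.633 FPKM), HOXA5 (2.08 ± 0.242), HOXA10 (2.51 ± 0.362) and HOXA13 (1.91 ± 0.210) were each separated from the next by a gene below 1 FPKM. Beside and between them lay HOXA2 at 0.868, HOXA4 at 0.0377, HOXA6 at 0.338, HOXA7 at 0.345, HOXA9 at 0.558 and HOXA11 at 0.0536 FPKM. HOXA11 lies between HOXA10 and HOXA13, and its highest value in any library was 0.109 FPKM, below the lowest value of either neighbour. Of the segment genes of the reproductive tract, HOXA10 and HOXA13 were thus expressed, and HOXA9 and HOXA11 were below 1 FPKM. The gene models of HOXA9 and HOXA10 share 4590 bases of span on the same strand, so the split of counts between these neighbours is uncertain.

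Read across the clusters by number, 11 of the 13 paralog groups had an expressed member. HOXB genes had the highest mean FPKM in 9 groups, those numbered 2 to 9 and 13. HOXD1 led group 1 and HOXA10 group 10, and in groups 11 and 12 no gene reached 1 FPKM, the highest being HOXD11. Group 13 had 3 expressed members, HOXB13, HOXD13 and HOXA13, with HOXC13 near 0.

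The stretches before the start of 3 genes at the edges of expression, an expressed and 2 near-silent members, are printed as examples. Their CG content does not stand for expressed and near-silent genes at large, which are compared below. Each line gives the 250 bases before a RefSeq start (GRCh38.p14), read 5′ to 3′ on the gene's strand, with CG dinucleotides in capitals. HOXD13 (chr2:176092471-176092720, plus strand) is shown as the isolated expressed gene, HOXA11 (chr7:27185233-27185482, minus strand) as the near-silent gene between expressed neighbours, and HOXB1 (chr17:48531012-48531261, minus strand) as the near-silent neighbour of the HOXB block.
HOXD13: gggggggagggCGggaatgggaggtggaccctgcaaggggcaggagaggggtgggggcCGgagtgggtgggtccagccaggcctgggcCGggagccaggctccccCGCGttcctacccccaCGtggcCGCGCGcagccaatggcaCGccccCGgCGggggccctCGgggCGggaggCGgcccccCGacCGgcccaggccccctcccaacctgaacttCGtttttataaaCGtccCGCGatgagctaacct
HOXA11: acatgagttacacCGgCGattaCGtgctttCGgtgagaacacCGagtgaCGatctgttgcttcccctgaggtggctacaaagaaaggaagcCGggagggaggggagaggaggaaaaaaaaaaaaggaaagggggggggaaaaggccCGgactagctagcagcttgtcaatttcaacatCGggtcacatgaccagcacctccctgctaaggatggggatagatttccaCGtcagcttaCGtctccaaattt
HOXB1: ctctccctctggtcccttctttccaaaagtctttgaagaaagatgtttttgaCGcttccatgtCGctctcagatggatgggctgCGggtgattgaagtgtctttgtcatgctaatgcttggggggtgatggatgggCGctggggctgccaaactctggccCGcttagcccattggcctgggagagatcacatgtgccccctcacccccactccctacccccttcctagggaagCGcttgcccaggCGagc
These stretches hold 21, 11 and 7 CG dinucleotides, against a median of 11 over all 34943 promoters of this length.

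RefSeq promoter entries matched 20 of the 39 genes, with 27 entries between them, of which 7 belong to HOXA3. HOXC4 and HOXC5 share the same stretch, which is counted for each. Among the matched genes, the number of CG dinucleotides did not separate expressed from other genes. The 15 stretches of 8 expressed genes held a median of 19 (0 to 40), and the 12 stretches of 12 other genes a median of 18 (7 to 28). No expressed HOXB gene had a matched entry, nor did HOXD9 or HOXC9, so the highest HOX genes are not covered. The letters TATAAA, the core of a TATA box, were searched on both strands. They occur in 5 of the 27 stretches, 4 of them of expressed genes and 1 of HOXA9, and in 10.8% of all promoters; HOXD13 has 2 overlapping matches, 1 on each strand. The letters TGATNNAT, a known HOX and PBX binding motif, occur on either strand in 3 of 27 stretches, those of HOXD11, HOXA2 and HOXB1, and in 6.49% of all promoters. A match describes letters in this window only.

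Addition of LDL changed no HOX gene past the threshold. Of the 39 genes, 29 had enough counts to be tested and none passed an adjusted p under 0.05 in the quasi-likelihood test of edgeR (Benjamini-Hochberg, over all 15432 features tested), in a comparison in which 10 features passed (0.0648%), 4 higher and 6 lower. The 10 genes not tested were HOXA4, HOXA11, HOXB1, HOXC4, HOXC5, HOXC6, HOXC11, HOXC12, HOXC13 and HOXD12, with at most 23 counts in any library. At an unadjusted p under 0.05, 2 of 29 HOX genes passed, HOXB6 and HOXB8, against 863 of all features (5.59%). In these bulk samples fewer cells expressing a gene and less RNA per cell cannot be told apart.

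Fold changes were small and went both ways. On the log2 scale, LDL against control, 16 HOX genes lay above 0 and 13 below, with a median of 0.01 beside 0.01 over all features tested, and the adjusted p-values of HOX genes ran from 0.858 to 0.996. By cluster, the median was -0.11 over 9 HOXA genes (3 above and 6 below 0), 0.03 over 9 HOXB genes (7 and 2), 0.02 over 3 HOXC genes (2 and 1) and 0.01 over 8 HOXD genes (4 and 4). Expressed members lay between -0.26 (HOXD4) and 0.14 (HOXD3), with 95% intervals from -0.78 to 0.57. For HOXB2 to HOXB9, the intervals of the fold spanned 0.886 to 1.19, so larger changes of these 8 genes lay outside the intervals. For 22 of the 29 tested genes the interval stayed within 1.5-fold either way, and for 26 within 2-fold; those of HOXA6, HOXA7 and HOXD10, which had low counts, reached beyond 2-fold.

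**Figure D2:**
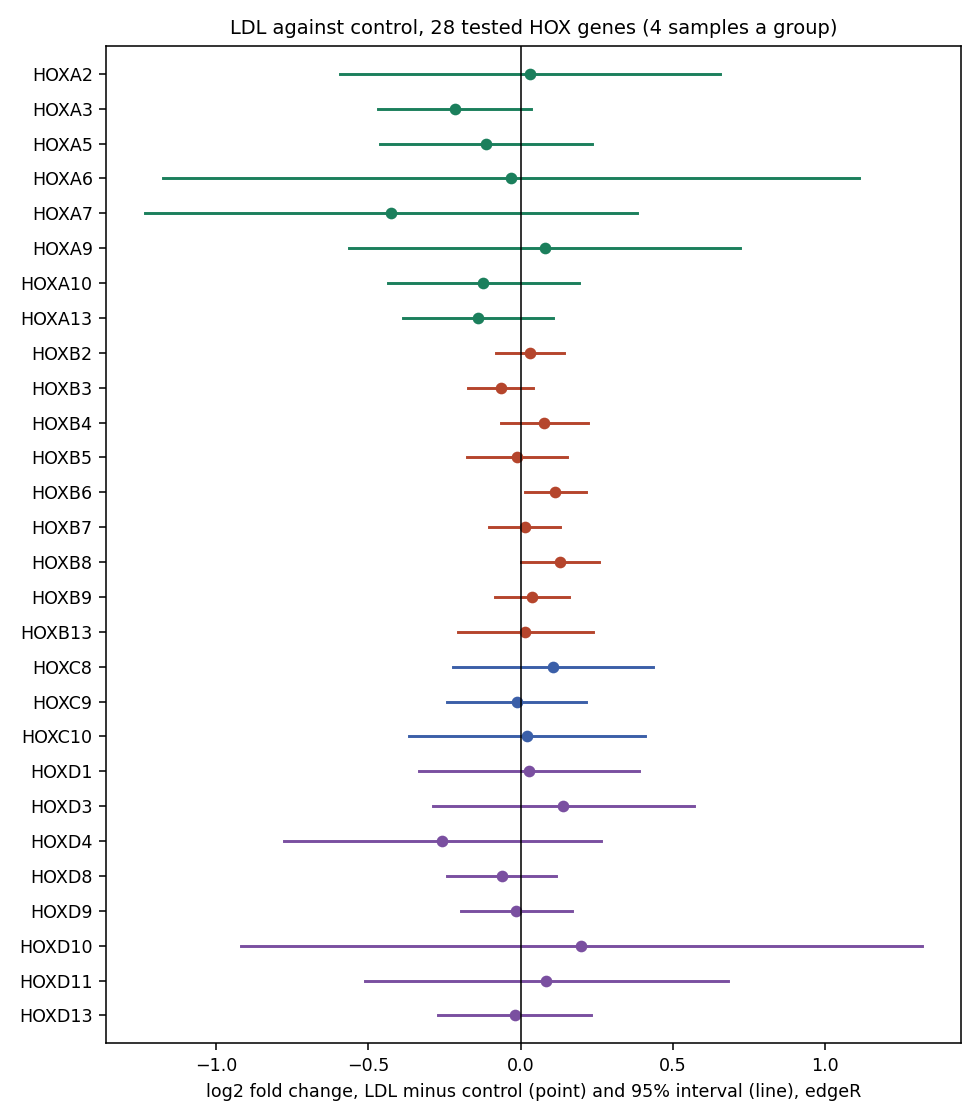
Log2 fold change of LDL against control for 28 tested HOX genes, in order along the 4 clusters (points), with 95% intervals from edgeR (lines) and 4 samples a group. The intervals of HOXB2 to HOXB9 are the narrowest plotted, those of HOXB6 and HOXB8 lie just above 0, and no gene passed the adjusted threshold.

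HOXB6, a gene of the trunk and of early blood cells, had the smallest p of all HOX genes. Control samples 1 to 4 read 140.9, 133.2, 138.9 and 137.9 normalised CPM, and LDL samples 1 to 4 read 145.6, 150.0, 157.2 and 143.8. Every LDL sample was above every control sample, by little: the means were 137.7 ± 3.29 and 149.1 ± 5.96 CPM (SD, n = 4 each). A log2 fold change of 0.11 (SE 0.048) had an edgeR p of 0.0278, an adjusted p of 0.858 and an exact two-sided permutation p of 0.0286, the smallest that 4 against 4 samples can give. HOXB6 was the sole HOX gene of 29 whose groups did not overlap (3.45%), and 532 of 15432 features tested (3.45%) did the same, so the HOX share equals the background.

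HOXB8 pointed the same way, with overlapping groups. Control samples read 77.8, 85.2, 76.4 and 85.8 CPM and LDL samples 86.4, 93.0, 93.7 and 82.5 CPM. LDL samples 1 to 3 were above all controls, and LDL sample 4 was below 2 of them. Its log2 fold change came to 0.13 (SE 0.060; edgeR p = 0.0479, adjusted p = 0.879; exact permutation p = 0.114). HOXB7, the highest gene of the cluster by FPKM, read 99.8, 96.9, 108 and 110 CPM in control and 104, 106, 109 and 99.98 CPM in LDL samples. Its groups overlapped nearly fully, and its log2 fold change of 0.01 (SE 0.055; adjusted p = 0.987, edgeR) changed sign when single samples were left out.

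The gene models of HOXB6 and HOXB8 overlap those of neighbours on the same strand. HOXB6 shares 9162 bases of its span with HOXB3, and HOXB8 lies within the span of a long HOXB7 model. How reads in shared stretches were assigned is not given, so the split of counts among these neighbours is uncertain. Between clusters, paralogs shared little exact sequence: the longest identical stretch of 2 transcripts was 62 bases, between HOXB3 and HOXD3. HOXB3 had the lower values in LDL samples: 85.5, 86.1, 84.0 and 79.5 CPM in control and 81.2, 80.8, 79.8 and 78.5 CPM in LDL samples. Control sample 4 lay among the LDL samples, and its log2 fold change came to -0.07 (SE 0.051; edgeR adjusted p = 0.907; exact permutation p = 0.114).

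HOXB4 read 29.5, 34.3, 31.3 and 31.9 CPM in control and 33.5, 35.3, 32.2 and 32.9 CPM in LDL samples, overlapping groups with a log2 fold change of 0.08 (SE 0.068; edgeR adjusted p = 0.926). HOXB2, HOXB5, HOXB9 and HOXB13 had log2 fold changes from -0.01 to 0.04. In both groups HOXB7 and HOXB6 had the highest levels of the block, followed by HOXB2 and HOXB8. HOXB7 led in control samples (72.3 ± 4.18 FPKM against 67.9 ± 1.46 for HOXB6) and HOXB6 in LDL samples (75.1 ± 2.22 FPKM against 73.4 ± 2.36 for HOXB7), with overlapping ranges in both groups.

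**Figure D3:**
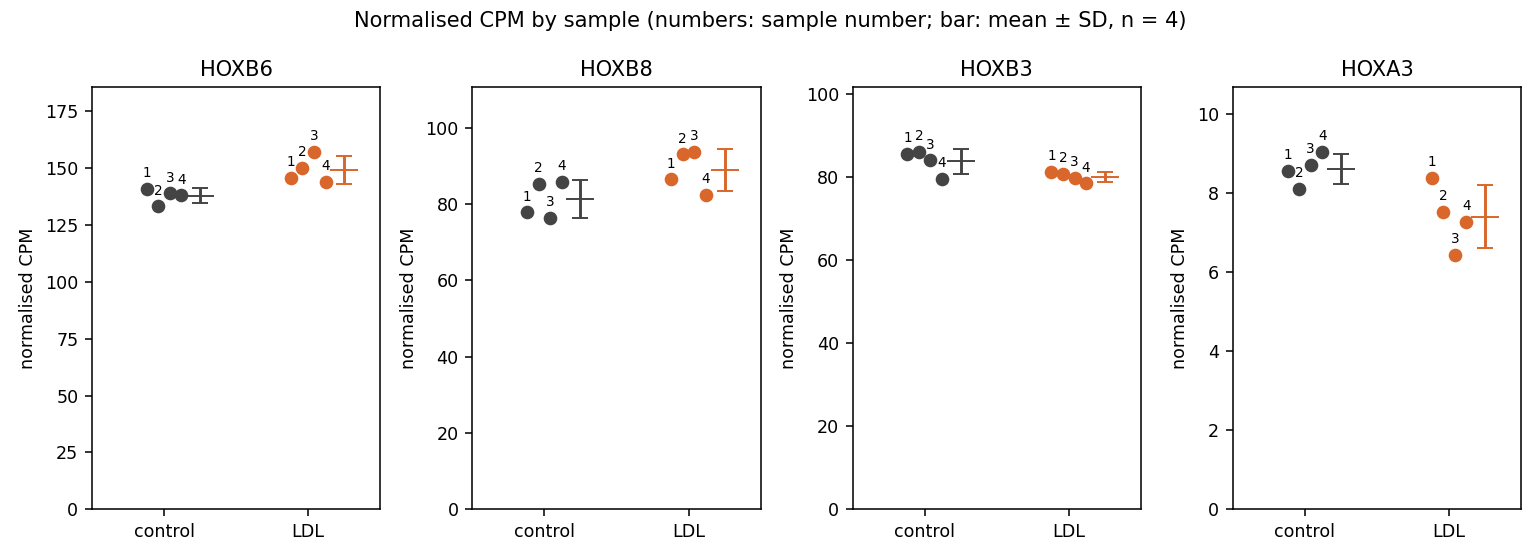
Normalised CPM of HOXB6, HOXB8, HOXB3 and HOXA3 in each control (dark) and LDL (orange) sample, numbered by sample, with mean ± SD (n = 4). HOXB6 is the gene without overlap, with 133 to 141 CPM in control and 144 to 157 CPM in LDL samples; the axes start at 0, which shows how small the differences are.

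HOXA3, a gene of the pharyngeal arches, thymus and neck, had lower values in LDL samples and depended on which deposited table was read. Its CPM were 8.56, 8.11, 8.70 and 9.05 in control and 8.38, 7.53, 6.43 and 7.26 in LDL samples. LDL sample 1 lay within the control range and the other 3 below it, with means of 8.60 ± 0.388 and 7.40 ± 0.805 CPM, a log2 fold change of -0.22 (SE 0.118; edgeR p = 0.0847, adjusted p = 0.882; exact permutation p = 0.0571). In the FPKM table the control samples read 3.20, 3.57, 3.98 and 4.43 and the LDL samples 2.95, 2.81, 2.78 and 2.71. There the groups did not overlap, and limma on log2(FPKM + 1) gave a difference of -0.32 with an adjusted p of 0.497. How many of all features had groups without overlap in FPKM was not counted.

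The count of HOXA3 divided by its FPKM and scaled to depth gives the length that the FPKM assumed. That length was not fixed: it ran from 2026 to 2854 bases over the 8 libraries, a ratio of 1.41. Control samples 1 to 4 gave 2678, 2290, 2182 and 2026 bases, and LDL samples 1 to 4 gave 2854, 2656, 2311 and 2692 bases. HOXA3 has 7 annotated transcripts within a 46.4 kb span that also holds HOXA4, HOXA5 and HOXA6. Of the 29 tested HOX genes, 22 kept this length within 1.1-fold, and the other 7 were HOXA7 (1.53), HOXA3, HOXD8 (1.33), HOXD3 (1.23), HOXB3 (1.16), HOXD10 (1.16) and HOXA9 (1.13).

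HOXA13 and HOXA7 had the next smallest p-values among HOXA genes. HOXA13 read 10.7, 11.7, 10.3 and 9.65 CPM in control and 9.47, 8.34, 11.3 and 9.24 CPM in LDL samples, where LDL sample 3 lay inside the control range; its log2 fold change came to -0.14 (SE 0.117; edgeR adjusted p = 0.918). HOXA7, a gene known from the thoracic skeleton, read 0.87, 0.85, 0.77 and 0.49 CPM in control and 0.43, 0.84, 0.43 and 0.52 CPM in LDL samples. Its log2 fold change of -0.43 was the lowest of the 29 and its interval, -1.23 to 0.38, was wide (edgeR adjusted p = 0.928). HOXA5 and HOXA10 had log2 fold changes of -0.11 and -0.12, and their groups overlapped.

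Among HOXD genes, HOXD4 had the smallest p: 1.79, 2.40, 2.45 and 1.62 CPM in control and 2.11, 1.54, 1.24 and 2.01 CPM in LDL samples. These ranges overlapped, with a log2 fold change of -0.26 (SE 0.247; edgeR adjusted p = 0.932). HOXD9, the highest HOXD gene, read 22.0, 23.7, 23.8 and 24.5 CPM in control and 23.7, 26.7, 22.2 and 20.5 CPM in LDL samples. The LDL samples lay on both sides of the control samples, and its log2 fold change came to -0.01 (SE 0.086; edgeR adjusted p = 0.993). HOXD1, HOXD3, HOXD8 and HOXD13 had log2 fold changes of 0.03, 0.14, -0.06 and -0.02. HOXD12 had 8, 0, 4 and 9 counts in control samples 1 to 4 and 0 in all 4 LDL samples; it was too low to be tested, and without a filter on low counts its edgeR adjusted p was 0.840.

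HOXC9, the highest HOXC gene, read 14.8, 16.5, 13.8 and 14.5 CPM in control and 13.6, 15.3, 17.4 and 12.8 CPM in LDL samples. The LDL range enclosed the control range, with a log2 fold change of -0.01 (SE 0.108; edgeR adjusted p = 0.993). HOXC8 and HOXC10 had log2 fold changes of 0.11 and 0.02 and overlapping groups. The directions of HOXC9 and HOXD9 were not stable: both changed sign when single samples were left out.

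The shares of the clusters in summed HOX FPKM differed slightly between the groups. HOXB genes held 84.2% to 85.4% in control samples (mean 85.0 ± 0.566) and 85.7% to 86.6% in LDL samples (86.0 ± 0.417). HOXA genes held 3.64% to 4.03% in control (3.80 ± 0.166) and 3.06% to 3.45% in LDL samples (3.31 ± 0.168). Neither pair of ranges overlapped, while those of HOXC and HOXD did. Shares are parts of a whole, so the HOXA and HOXB differences are not separate results. On normalised CPM, which do not use gene length, the HOXA ranges were again apart (4.74% to 5.24% and 4.09% to 4.62%), and those of HOXB met (83.7% to 84.8% in control and 84.8% to 85.6% in LDL samples, with the highest control sample just above the lowest LDL sample). The sums behind the shares were less apart. Summed HOXB levels overlapped in CPM and in FPKM (326.0 to 335.0 FPKM in control and 333.3 to 352.9 in LDL samples). Summed HOXA CPM also overlapped (37.1 to 41.5 in control and 33.5 to 37.9 in LDL samples). Summed HOXA FPKM did not, each LDL sample being below each control sample. These shares and sums are descriptions over members chosen with results known and carry no test. The highest HOXA gene is HOXA3, whose assumed length varied as given above.

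**Figure D4:**
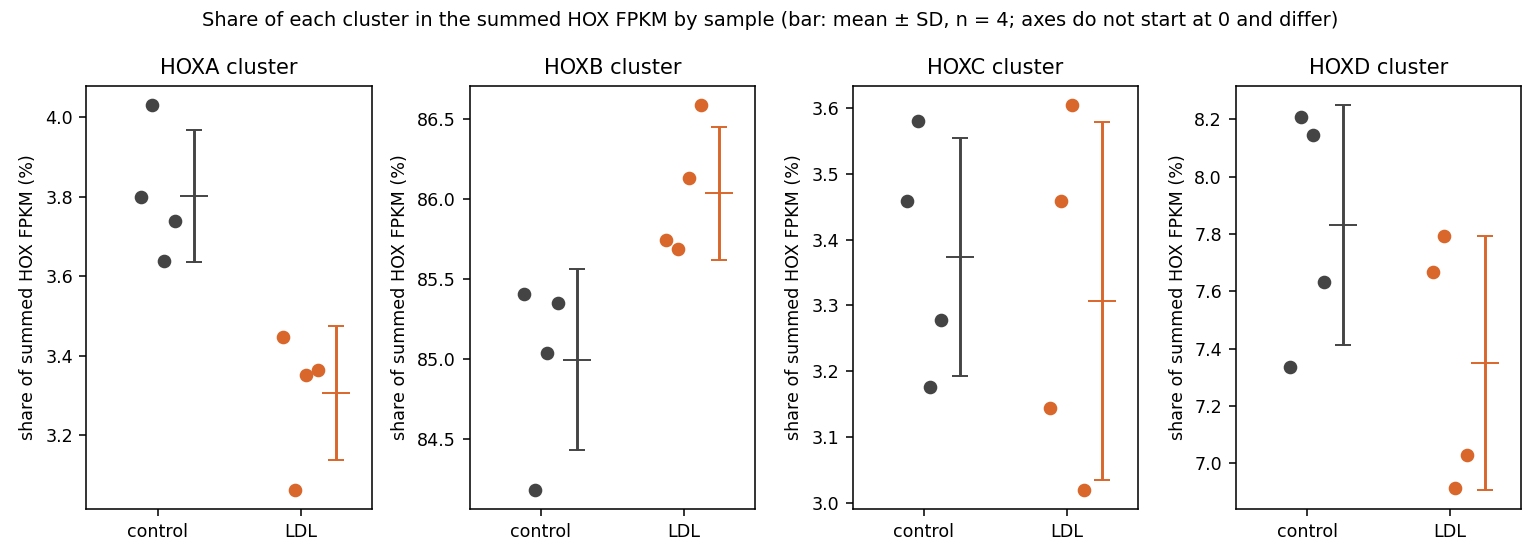
Share of each cluster in the summed HOX FPKM of each control (dark) and LDL (orange) sample, in percent, with mean ± SD (n = 4). The axes do not start at 0 and differ between panels; HOXB shares are 84.2% to 85.4% in control and 85.7% to 86.6% in LDL samples, and HOXA shares 3.64% to 4.03% and 3.06% to 3.45%.

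Leaving out libraries did not bring any HOX gene past the threshold. Without LDL sample 1, 149 of 15625 features passed in edgeR (0.954%), and without LDL samples 1 and 4, 248 of 15944 (1.56%), but none of them was a HOX gene. The lowest adjusted p of a HOX gene was then 0.207 (HOXB6) and 0.0971 (HOXB8), with log2 fold changes of the same direction as with all samples. At an unadjusted p under 0.05, 3 HOX genes (HOXA3, HOXB6 and HOXB8) passed in both of these fits, of 30 and 31 tested. Over all features 14.5% and 13.9% did so, so the HOX counts were not above the background.

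Genes that act with HOX proteins were described from lists. Of 9 cofactors, 8 were tested and none passed (edgeR), with 3 above and 5 below 0, a median log2 fold change of -0.03 and no unadjusted p under 0.05. PBX2 was the highest at 13.9 FPKM, with PBX3 at 8.75, PKNOX1 at 8.08, PBX4 at 4.63, MEIS1 at 4.13, MEIS2 at 2.69 and MEIS3 at 1.08 FPKM, while PKNOX2 (0.0022 FPKM) was near 0. PBX3 had the smallest p. It read 27.3, 26.3, 25.8 and 24.8 CPM in control and 22.9, 24.0, 23.3 and 24.1 CPM in LDL samples, each LDL sample below each control sample, a log2 fold change of -0.14 (SE 0.070; edgeR adjusted p = 0.879). Of the 8 tested cofactors, 1 had groups that did not overlap, beside 532 of 15432 features tested (3.45%).

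All 39 listed Polycomb, trithorax and related chromatin regulators of HOX genes were tested, and none passed in edgeR with all samples. The related ones include DOT1L, which belongs to neither group. Log2 fold changes lay above 0 for 22 and below 0 for 17, with a median of 0.01, and 3 of 39 had an unadjusted p under 0.05 (DOT1L, ASH2L and KMT2A), near the 5.59% of all features. RBBP7, a histone-binding subunit, was the highest at 157 FPKM. DOT1L, a histone methyltransferase of active genes, had the smallest p: 81.9, 82.9, 88.0 and 85.7 CPM in control and 81.8, 76.9, 71.7 and 72.0 CPM in LDL samples, just without overlap, a log2 fold change of -0.16 (SE 0.057; edgeR adjusted p = 0.785). Of the 39 regulators, 2 had groups that did not overlap (5.13%), beside 3.45% of all features tested.

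Here 1 library decided the count. Without LDL sample 1, the trithorax methyltransferases KMT2D and KMT2A passed as lower in LDL samples, with log2 fold changes of -0.30 and -0.22 and edgeR adjusted p-values of 0.0279 and 0.0439. Calls rose across all features in that fit, to 149 of 15625 (0.954%), of which 102 were lower. KMT2D read 77.2, 81.5, 84.8 and 81.5 CPM in control and 90.1, 63.0, 62.2 and 72.1 CPM in LDL samples 1 to 4. LDL sample 1 was the highest of the 8 and the other 3 LDL samples were the lowest. KMT2A read 108, 118, 118 and 116 CPM in control and 120, 97.6, 99.8 and 99.6 CPM in LDL samples, with LDL sample 1 again the highest. Without LDL samples 1 and 4 both also passed (edgeR adjusted p = 0.000814 and 0.0427), in a fit in which 248 of 15944 features passed (1.56%).

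Of 32 listed genes flanking the clusters, 31 were in the tables and 26 were tested, and none passed in edgeR (15 above and 11 below 0, median log2 fold change 0.02, no unadjusted p under 0.05). Of these genes HNRNPA1, beside HOXC, was the highest at 497 FPKM. UBE2Z, a ubiquitin-conjugating enzyme gene beyond HOXB13, had the smallest p, with 330 to 358 CPM in control and 313 to 343 CPM in LDL samples and a log2 fold change of -0.08 (edgeR adjusted p = 0.884). The homeobox genes at the 5′ ends of HOXA and HOXD, EVX1 and EVX2, stood at 0.0060 and 0.0122 FPKM. The next listed genes beyond HOXA13 and HOXD13 were thus close to 0, and 24 of the 31 flanking genes were at 1 FPKM or more. The noncoding genes of the clusters were not analysed here.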

How the data were processed

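Stranded mRNA libraries were made from total RNA of 8 samples, per the labels' protocols. Tools listed in the submitters' processing notes are HISAT2, featureCounts and DESeq2 1.26.0, with the build GRCh38; neither their roles, the settings nor the annotation are given. The deposited counts are whole numbers handled as estimated counts, since 55.2% of values from 1 to 20 were even and 2557 features carry assembly identifiers. The FPKM table, deposited by the authors, holds length-scaled values, which served for levels between genes and for alternatives.

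Groups and numbers came from sample titles. Features were tested with edgeR 4.0.16 (quasi-likelihood, robust, TMM, filterByExpr, group only; R 4.3.3) on deposited counts, with Benjamini-Hochberg adjustment over 15432 features and a threshold of 0.05. Normalised CPM are counts scaled to the effective (TMM) library size. Exact two-sided permutation tests (scipy 1.17.1) used log2 CPM of single genes. Gene positions are GENCODE 29 on GRCh38, and promoters RefSeq on GRCh38.p14. The test was checked on simulated data. The members and lists were chosen with earlier results of these data known. A few members of these lists count in the totals but are not reported singly here. Named are expressed members and their neighbours, in full the 8 tested members with the smallest p and the highest member of each cluster, and of other lists the called member, that with the smallest p and the highest; PBX, MEIS and PKNOX genes and the other unadjusted-p genes were added after their values were seen. Alternatives were DESeq2 1.42.0, its size factors in edgeR, other filters, limma 3.58.1 on log2(FPKM + 1 or 0.1), a replicate block, and leaving out samples. Total counts per library, 34682501 to 44883561, set the precision.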

Additional observations from a re-analysis of the deposited data

Results flagged for a closer look

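Each group of 4 samples was checked for a sample far from the other 3, for 29 HOX genes in 2 groups, or 58 checks. Chance picks out about 1 in 20 groups, and 4 groups were picked out here. HOXB9 stood at 64.2 CPM in LDL sample 4, with the other LDL samples at 67.6 to 67.9 CPM. HOXD11 stood at 1.09 CPM in LDL sample 4, with the others at 1.80 to 1.87 CPM. HOXA9 stood at 1.60 CPM in control sample 1, with the others at 1.01 to 1.03 CPM. HOXA6 stood at 0.811 CPM in LDL sample 1, with the others at 0.172 to 0.260 CPM. In HOXB9 the gap is small beside the level, and HOXD11, HOXA9 and HOXA6 rest on low counts.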

How the results depend on the processing

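No HOX gene passed the threshold in any of 17 alternatives, and the median log2 fold change of HOX genes ran from -0.02 to 0.05 over them. At an unadjusted p under 0.05 the alternatives gave 0 to 4 HOX genes: 0 with the replicate block and without control sample 3, LDL sample 2 or LDL sample 3, 2 of 38 with DESeq2 (HOXD12 and HOXB6; 4.80% of all features), and 4 of 38 with limma on log2(FPKM + 1) and no minimum (HOXA3, HOXB6, HOXB8 and HOXD12; 5.70%). The number of expressed HOX genes was 22 to 26 under other levels. HOXB6 kept its direction when each sample was left out (0.09 to 0.13), as did HOXB8 (0.10 to 0.16) and HOXA3 (-0.28 to -0.16).

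The number of all features past the threshold, 10, became 47 with DESeq2, 5 with limma on log2(FPKM + 0.1), 2 with limma on log2(FPKM + 1) and no minimum, 2 to 149 with a sample left out, and 248 without LDL samples 1 and 4. Calls among the Polycomb, trithorax and related regulators, 0 with all samples, ran from 0 to 2 with a sample left out. They were 2 without LDL samples 1 and 4. Log2 fold changes changed sign for HOXB7 (-0.0175 to 0.0432 with a sample left out), HOXC9 (-0.102 to 0.0503, and 0.132 without LDL samples 1 and 4) and HOXD9 (-0.0903 to 0.0422, and 0.0526 without both). The cause was not tested. Leaving out LDL samples 1 and 4 was chosen after seeing the data.

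With the replicate number as a block, 2 features passed and no HOX gene did. Same-numbered samples did not deviate together (correlations -0.10 to 0.06), so the numbers give no pairing. Counts of at most 23 a library left 10 HOX genes untested, and changes in genes under 1 CPM were not detectable at this depth unless large.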
